A study of Mus musculus with 2 samples.

Results

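Macrophages that carried complement C1q but neither the tetraspanin Cd9 nor the lectins of resident adipose macrophages were examined in the stromal vascular fraction of mouse epididymal white adipose tissue (eWAT). A barcode was taken when it had at least 200 detected genes, at least 10 unique molecular identifiers (UMIs) of C1qa, C1qb and C1qc in sum, 0 UMIs of Cd9, at most 2 UMIs of Cd209f, Cd209d, Fcna and Folr2 in sum, fewer than 10 UMIs of the fibroblast gene Dcn and fewer than 3 UMIs of the endothelial genes Cdh5 and Cldn5 in sum. This rule found 101 cells among 2174 barcodes, 23 in the library from mice on low fat diet (LFD) and 78 in the library from mice on high fat diet (HFD). The cells were therefore selected on measured values, and the levels of the selecting genes are given as a description only.

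The study compared the stromal cells of eWAT from male C57BL/6 mice (C57BL/6J in the study's methods) after 24 weeks of LFD or HFD feeding that began at 6 weeks of age. Each diet gave 1 droplet-based library with 3′ chemistry, so there were no replicates, no test between diets was made, and how many mice each library pooled is not given in the sources used here. The diet is the treatment given for each library, although a second text field of the deposit names low fat diet for both. The 2 libraries held 7356278 UMIs on LFD and 8412325 UMIs on HFD, and they shared 0 barcodes.

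Adipose tissue macrophages come from cells seeded early in life, which maintain themselves in the tissue, and from blood monocytes that enter through the chemokine receptor Ccr2 and differentiate there. Macrophages that are exposed to microbial products or damaged cells activate the transcription factor NF-kB, which drives chemokines such as Cxcl2 and Ccl4 and, with them, inhibitors of its own pathway such as Tnip3. The class II molecules H2-Ab1, H2-Aa and H2-Eb1 display peptides to CD4+ T cells and are made by macrophages, dendritic cells and B cells. In obese fat a further macrophage state is known that handles lipid around dying adipocytes and carries Cd9, Trem2 and lysosomal enzymes.

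The 250 bases before the start sites of 4 genes are shown because the results turn on them, the chemokine Cxcl2, the NF-kB inhibitor Tnip3 and the class II chains H2-Aa and H2-Eb1. They come from RefSeq on GRCm38.p6, in the direction of transcription. Capitals mark matches on either strand to the kB motif that NF-kB can bind (3 G, then any 5 bases, then 2 C) or to CCAAT, the box bound by NF-Y. The windows are chr5:90903649-90903898 (plus strand) for Cxcl2, chr6:65590148-65590397 (plus strand) for Tnip3, chr17:34287824-34288073 (minus strand) for H2-Aa and chr17:34305617-34305866 (plus strand) for H2-Eb1.
Cxcl2: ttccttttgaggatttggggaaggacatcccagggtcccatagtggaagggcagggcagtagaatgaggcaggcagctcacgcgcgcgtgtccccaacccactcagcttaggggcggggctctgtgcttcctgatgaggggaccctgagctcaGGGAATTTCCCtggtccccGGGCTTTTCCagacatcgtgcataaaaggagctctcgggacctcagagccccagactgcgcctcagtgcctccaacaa
Tnip3: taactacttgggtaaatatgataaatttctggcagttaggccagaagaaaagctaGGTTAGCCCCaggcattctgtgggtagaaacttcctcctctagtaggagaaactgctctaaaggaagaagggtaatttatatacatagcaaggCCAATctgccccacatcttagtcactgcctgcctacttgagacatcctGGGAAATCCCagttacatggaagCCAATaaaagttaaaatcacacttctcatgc
H2-Aa: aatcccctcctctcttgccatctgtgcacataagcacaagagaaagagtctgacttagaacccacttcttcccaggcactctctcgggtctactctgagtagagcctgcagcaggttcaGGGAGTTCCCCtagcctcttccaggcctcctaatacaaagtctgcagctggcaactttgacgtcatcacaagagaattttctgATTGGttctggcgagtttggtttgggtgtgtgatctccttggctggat
H2-Eb1: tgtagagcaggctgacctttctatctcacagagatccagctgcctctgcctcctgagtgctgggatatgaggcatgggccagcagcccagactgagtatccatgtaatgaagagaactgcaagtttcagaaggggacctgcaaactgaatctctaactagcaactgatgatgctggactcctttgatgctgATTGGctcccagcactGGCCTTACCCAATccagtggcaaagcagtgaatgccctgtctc

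The Cxcl2 window held 3 matches to the kB motif, between 97 and 78 bases before the start, and 0 matches to CCAAT, with overlapping matches counted separately. The Tnip3 window held 2 matches to the kB motif, 195 and 54 bases before the start, and 2 to CCAAT, 102 and 31 bases before it. The H2-Aa window held 2 overlapping matches to the kB motif, 131 and 130 bases before the start, and 1 to CCAAT at 48 bases. The H2-Eb1 window held 1 match to the kB motif at 43 bases and 2 to CCAAT at 59 and 35 bases, of which the former and the last of the latter shared 2 bases. Of all 32851 promoter windows of 250 bases, 45.8% held the kB motif and 33.8% held CCAAT, so a match is common and describes the letters only. The Ccr2 window, which is not shown, held 0 matches to either. In the GENCODE M21 annotation the Tnip3 window lies within an intron of a longer Tnip3 gene model, the end of the Cxcl2 window reaches into its first exon, and the H2-Eb1 window overlaps an exon of the antisense gene Gm20513.

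The Cd9-negative macrophages made up a larger share of the HFD library than of the LFD library. They were 2.18% of LFD barcodes (1.38 to 3.25%) and 6.98% of HFD barcodes (5.56 to 8.64%), a ratio of 3.21 (2.03 to 5.07). Of the C1q-selected macrophages, 230 on LFD and 321 on HFD, they were 10.0% (6.45 to 14.6%) and 24.3% (19.7 to 29.4%), a ratio of 2.43 (1.58 to 3.75). Intervals are exact Clopper-Pearson intervals for shares at a level of 95%, and cover counting error only, not the spread between animals. Over the alternative limits and filters that were tried, the ratio among all barcodes ran from 2.48 to 4.66 and among C1q-selected cells from 1.88 to 3.46, so it was above 1 in each. In dissociated tissue a share also depends on how many other cells were recovered, and more cells cannot be told apart from fewer of the rest.

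Macrophages with at least 1 UMI of Cd9 and at most 2 UMIs of the resident lectins, called Cd9-positive here, numbered 2 on LFD and 70 on HFD, or 0.870% and 21.8% of C1q-selected cells. Those with at least 3 UMIs of the resident lectins, with or without Cd9, numbered 205 and 173, or 89.1% and 53.9%, and 2 and 47 of them carried Cd9. On LFD the Cd9-negative cells were thus the second class of macrophages after the resident one, and on HFD they and the Cd9-positive cells were close in number.

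**Figure D1:**
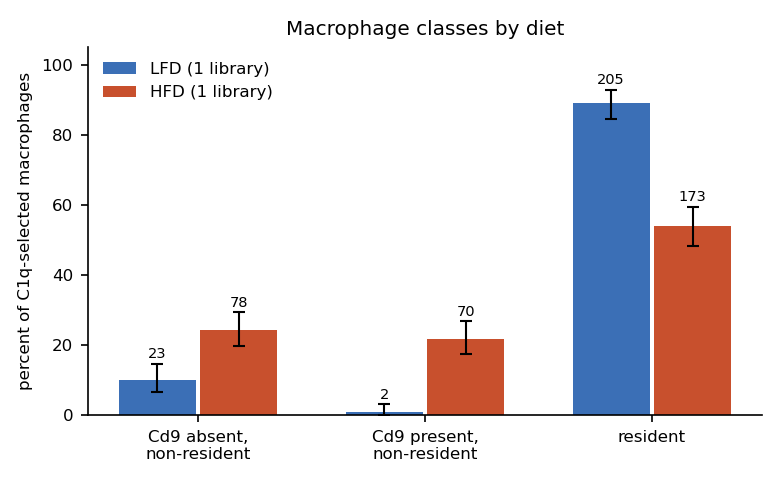
Percent of C1q-selected macrophages in each class (y axis) on LFD and HFD, with cell numbers above the bars and Clopper-Pearson 95% intervals as error bars. The Cd9-negative class stood at 10.0% on LFD and 24.3% on HFD, while the resident class stood at 89.1% and 53.9%.

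The selecting genes show how close the cells lay to the limits. The sum of C1q UMIs ran from 11 over a median of 31 to 161 on LFD and from 10 over 57 to 174 on HFD, and 10 LFD and 14 HFD cells were within 10 to 19 UMIs. A further 8 LFD and 10 HFD barcodes met every other limit with 5 to 9 C1q UMIs. The resident lectins were at 0 in 12 LFD and 57 HFD cells and at 1 or 2 UMIs in the other 11 and 21, while 10 LFD and 8 HFD cells without Cd9 stood just outside with 3 or 4. Cd9 at 1 UMI kept 1 LFD and 23 HFD cells out, and Cd9 at 2 or more kept out 1 and 47. The median depth on HFD was 5622.5 UMIs for the Cd9-negative cells and 7495 for the Cd9-positive cells, and the part of depth in the division by Cd9 was not tested.

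The cells summed to 154889 UMIs on LFD and 471886 UMIs on HFD. Their depth ran from 529 over a median of 5158 to 20027 UMIs on LFD, and from 854 over 5622.5 to 15529 UMIs on HFD. The 3 deepest LFD cells held 12.9, 12.9 and 12.4% of all UMIs of the LFD class, or 38.2% together. Of 110 listed or named genes with at least 50 UMIs, 31 had an HFD over LFD ratio that moved by over 1.5 times when these 3 cells were left out, and both values are given for each such gene whose ratio between diets is described. A gene of which they held 0 UMIs moves by 1.62 times through the smaller total alone. The limits on genes and mitochondrial UMIs in the study's methods would have kept 9 LFD and 30 HFD cells. Scrublet, a doublet caller, marked 21 LFD and 26 HFD barcodes, 0 of them among these cells.

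The 5 genes that mark the class were detected in both libraries. Levels are in CPM, the UMIs of a gene in the cells of a class over all UMIs of these cells, scaled to 1000000 UMIs, with exact Poisson intervals. H2-Ab1, the class II beta chain (chr17:34257689-34269419, plus strand, GRCm38), had 6637 CPM on LFD and 7798 CPM on HFD and was seen in 23 of 23 and 77 of 78 cells. Cxcl2, a neutrophil-attracting chemokine (chr5:90903871-90905938, plus strand), had 6069 CPM (5687 to 6470) on LFD and 8381 CPM (8122 to 8647) on HFD and was seen in 78.3 and 92.3% of cells. Ccr2, the monocyte recruitment receptor (chr9:124101950-124113557, plus strand), had 1569 CPM (1378 to 1779) on LFD and 759 CPM (682 to 841) on HFD.

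Tnip3, an inhibitor in the NF-kB pathway (chr6:65525313-65634040, plus strand), had 510 CPM on LFD and 551 CPM on HFD and was seen in 52.2 and 64.1% of cells. Ccl4, a chemokine that attracts monocytes and T cells (chr11:83662584-83664683, plus strand), had 181 CPM (120 to 261) on LFD and 502 CPM (440 to 570) on HFD, but in only 7 and 31 cells. At such a level a cell of median depth holds few UMIs, so cells without a UMI of Ccl4 may still express it. On LFD Ccl4 was higher elsewhere, at 698 CPM in 5 monocytes and 334 CPM in 9 dendritic cells, and Tnip3 was at 1.32 times (0.679 to 2.85) the level of the former and 1.13 times (0.752 to 1.74) that of the latter. On HFD Tnip3 was 2.79 times (1.68 to 4.95) the level of monocytes and 2.12 times (1.52 to 3.03) that of dendritic cells, while Ccl4 was 6.77 times (3.07 to 18.6) and 0.810 times (0.638 to 1.04) theirs.

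The same genes in other cells show what free RNA can give. Among fibroblasts, whose median depth of 8521 UMIs on LFD and 7987 UMIs on HFD was above that of the Cd9-negative macrophages, Cxcl2 was seen in 7.83 and 10.9% of cells and H2-Ab1 in 6.01 and 5.61%. Ccr2 and Ccl4 were each seen in 0.522 and 0.660% of fibroblasts, and Tnip3 in 0.783 and 0.330%. All 5 shares in the Cd9-negative cells were several times these. After thinning every cell to 2000 UMIs and keeping the 18 LFD and 73 HFD cells of that depth, Ccr2 was seen in 61.1% of LFD and 64.4% of HFD cells, Tnip3 in 50 and 52.1%, and Ccl4 in 27.8 and 24.7%.

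**Figure D2:**
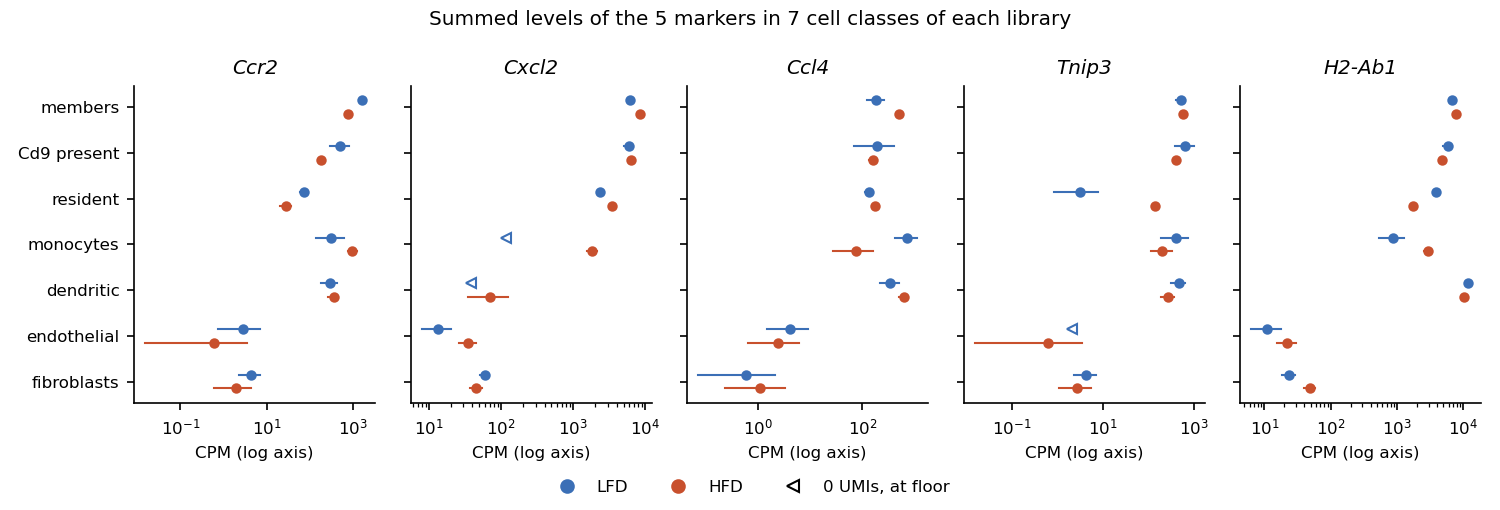
Level of the 5 marker genes (x axis, CPM, log axis) in 7 cell classes (y axis, members being the Cd9-negative macrophages) on LFD and HFD, with Poisson 95% intervals as lines and open triangles for classes at 0 UMIs, drawn at the level of 3 UMIs. Ccr2 stood at 1569 and 759 CPM in the Cd9-negative macrophages against 73.1 and 27.9 CPM in the resident ones, and H2-Ab1 was higher still in dendritic cells, at 11789 and 10151 CPM.

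The cells carried macrophage genes. Csf1r, the receptor for the macrophage growth factor, was seen in 95.7% of LFD and 92.3% of HFD cells, and Adgre1, which encodes F4/80, in 73.9 and 82.1%. Markers of classical monocytes were at or near 0, with 0 UMIs of Ly6c2, Plac8 and Chil3 on LFD and 2, 9 and 0 UMIs of them on HFD. Of 10 listed monocyte markers 8 were at 0 on LFD and 3 on HFD, and the summed level, mostly Nr4a1, was 0.057 and 0.046% of UMIs. Of 13 listed dendritic cell markers, 7 were at 0 on LFD and 5 on HFD, among them Flt3, Xcr1, Clec9a and Ccr7 in both libraries, and the list summed to 0.045 and 0.041% of UMIs, against 0.306 and 0.259% in dendritic cells. Batf3, a transcription factor, gave 36 of the 70 UMIs of this list on LFD and 96 of 194 on HFD, and it stood at 232 CPM on LFD and 203 CPM on HFD, beside 231 and 183 CPM in dendritic cells. Irf8, another transcription factor, had 123 and 140 CPM against 1080 and 721 CPM in dendritic cells. At least 2 UMIs of these markers were found in 12 of 23 LFD and 40 of 78 HFD cells.

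Markers of T cells, NK cells, mural cells and mesothelial cells were at 0 UMIs in all 101 cells. Taking these with B cell and fibroblast markers, 0 LFD and 3 HFD cells had 2 or more UMIs, and endothelial markers reached at most 1 UMI in any cell. The word inflammatory in the working name needs a limit, because Nos2 and Il12b, which mark classically activated macrophages, were at 0 UMIs in both libraries. That allows up to 19.4 CPM on LFD and 6.36 CPM on HFD. Retnla, a gene of alternative activation, was seen in 69.6 and 60.3% of cells, against 15.1 and 6.60% of the deeper fibroblasts. After thinning to 2000 UMIs the shares were 72.2 and 56.2% against 5 and 0.678%. Of other genes linked to alternative activation, Arg1 had 0 UMIs on LFD and 3 on HFD and Chil3 0 on both. Mgl2 had 145 and 454 UMIs and Clec10a 35 and 88. The class is called here by its rule, Cd9-negative non-resident macrophages.

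The diet comparison asked how these macrophages differed between lean and obese fat. Genes of lipid handling and lysosomes were mostly higher on HFD, and Ccr2, Retnla, Lyz1 and Fn1 were among the genes that were lower. Class II and NF-kB feedback genes with at least 50 UMIs were within 2-fold between diets, as were most genes with as many UMIs. Among the 1819 genes with at least 50 UMIs over both libraries, 102, or 5.61%, were at least 2-fold higher on HFD and 59, or 3.24%, at least 2-fold lower, as plain ratios with no test. Ratios carry an exact conditional binomial interval that covers counting error only. The median log2 ratio over 5983 genes with at least 10 UMIs was -0.06.

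Of 18 genes listed for lipid-associated macrophages, 14 had at least 50 UMIs. Among these 14, 9 were at least 2-fold higher on HFD and 0 lower, beside 5.61 and 3.24% of all genes. The median log2 ratio of the 17 with at least 10 UMIs was 1.44. Trem2, a lipid-sensing receptor, had 19.4 CPM on LFD and 318 CPM on HFD, from 3 UMIs in 2 cells and 150 UMIs in 43 cells, a ratio of 16.4 (5.51 to 80.5), or 10.1 without the 3 deepest LFD cells. Fabp4, a fatty acid carrier, had 58.1 CPM on LFD and 434 CPM on HFD, a ratio of 7.48 (3.86 to 16.6), from 8 and 49 cells. Fabp4 is also the leading transcript of capillary endothelium here, at 40273 and 44125 CPM, and the part of free endothelial RNA in its value was not tested.

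Ctsl, a lysosomal protease, had 71.0 CPM on LFD and 398 CPM on HFD, a ratio of 5.61 (3.06 to 11.4). Plin2, which coats lipid droplets, had 349 and 1091 CPM, a ratio of 3.13 (2.36 to 4.22), and its median over cells was 2.50 UMIs per 10000 UMIs on LFD and 8.08 on HFD. Cd63, a lysosomal tetraspanin, was 3.15 times (2.14 to 4.79) the LFD level, 2.01 times without the 3 deepest LFD cells and 1.51 times after thinning to 3000 UMIs. Lipa, the lysosomal acid lipase, was 2.49 times (1.56 to 4.20) the LFD level. The cathepsins Ctsb, at 1.83, and Ctsd, at 1.21, did not pass 2-fold. Without the 3 deepest LFD cells 8 of the 14 genes were at least 2-fold higher and 0 lower, and the share of all genes in that setting is not given here.

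Mmp12, a macrophage elastase, was listed at 0 UMIs on LFD and had 131 CPM on HFD, at least 6.78-fold higher against a floor of 3 LFD UMIs and at least 4.19-fold without the 3 deepest LFD cells, with lower limits of the intervals at 5.35 and 3.31, but only 9 HFD cells carried it and 1 of them held 41.9% of its 62 UMIs. Lpl, the lipoprotein lipase, had 2214 CPM on LFD and 1471 CPM on HFD, a ratio of 0.664 (0.583 to 0.758). The 3 deepest LFD cells held 59.5% of its LFD UMIs, and without them the ratio was 1.01 (0.843 to 1.22), so it gave no direction. Spp1, which encodes osteopontin, had 0 UMIs on LFD and 6 UMIs in 3 HFD cells.

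Apoe, a lipid carrier protein, had 2357 CPM on LFD and 5970 CPM on HFD, a ratio of 2.53 (2.27 to 2.83), but its median over cells was 42.7 UMIs per 10000 on LFD and 30.1 on HFD. The ratio was 1.77 without the 3 deepest LFD cells and 0.779 within the study's limits, so its direction depended on which cells were kept. Within those limits Trem2 was 2.71, Fabp4 8.60, Ctsl 5.35 and Plin2 2.34 times the LFD level, and the median log2 ratio of the list was 0.83.

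**Figure D3:**
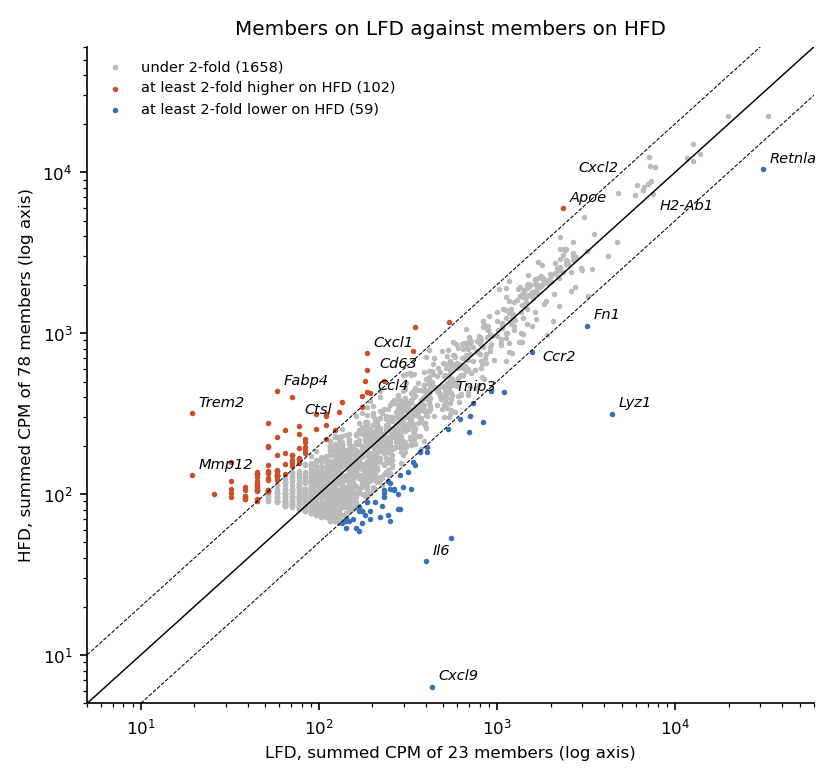
Level of each gene in the Cd9-negative macrophages (members) on LFD (x axis) and HFD (y axis), in CPM on log axes, for genes with at least 50 UMIs, with genes at 0 UMIs drawn at the level of 3 UMIs. Of 1819 genes, 102 lay at least 2-fold above the diagonal and 59 at least 2-fold below it, with Trem2 and Fabp4 far above and Lyz1 and Il6 far below.

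Chemokines did not move as a block. Of 13 with at least 50 UMIs, 2 were at least 2-fold higher on HFD and 3 lower, beside 5.61 and 3.24% of all genes, and the median log2 ratio of 15 with at least 10 UMIs was -0.06. Cxcl1, which attracts neutrophils, had 187 CPM on LFD and 748 CPM on HFD, a ratio of 4.0 (2.73 to 6.05), and Ccl4 a ratio of 2.78 (1.87 to 4.27), and the latter was 1.47 when all cells were thinned to 3000 UMIs before the rule. Cxcl2 was 1.38 (1.29 to 1.48) times the LFD level, with medians over cells of 53.1 UMIs per 10000 on LFD and 55.7 on HFD and highest cells at 119 and 311. Its lowest cells were at 0 on both diets, 5 on LFD and 6 on HFD, so the cells of the 2 libraries overlapped.

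Ccl24, an eosinophil-attracting chemokine, had 555 CPM on LFD and 53.0 CPM on HFD, a ratio of 0.0954 (0.059 to 0.150), from 14 and 10 cells. Cxcl10, induced by interferon, had 697 and 244 CPM, a ratio of 0.350 (0.266 to 0.459), with 47.2% of its LFD UMIs in 1 cell. Cxcl9, also induced by interferon, had 433 and 6.36 CPM, but 82.1% of its LFD UMIs came from 1 of the deepest cells, and the ratio of 0.0147 was 0.0608 without these. Ccl2 and Ccl7, the ligands of Ccr2, had ratios of 0.736 (0.624 to 0.870) and 0.885 (0.652 to 1.21), and the latter was 0.547 (0.403 to 0.750) without the 3 deepest LFD cells, which held 0 UMIs of Ccl7.

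Among receptors, Ccr2 was lower on HFD, with a ratio of 0.484 (0.410 to 0.572). Its median over cells was 12.1 UMIs per 10000 on LFD, where 8 cells were at 0 and the highest had 32.9, and 7.34 on HFD, where 23 cells were at 0 and the highest had 26.2. The share of cells with a UMI was nearly equal, at 65.2 and 70.5%, so the difference lay in the level and the cells of the libraries overlapped. Without the 3 deepest LFD cells, which held 47.7% of the LFD UMIs of Ccr2, the ratio was 0.57. It was 0.64 within the study's limits and 0.84 after thinning to 3000 UMIs. In none of these settings was the ratio 2-fold lower. With at least 500 genes and under 10% mitochondrial UMIs per cell it was 0.477, and over all alternatives it ran from 0.426 to 0.835. Ccr1 had a ratio of 0.353 (0.200 to 0.628) that came to 0.95 without these 3 cells and to 3.15 after thinning.

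Of 9 cytokine and sensor genes with at least 50 UMIs, 2 were at least 2-fold higher on HFD and 2 lower, beside 5.61 and 3.24% of all genes. Tnf had 136 CPM on LFD and 373 CPM on HFD, a ratio of 2.75 (1.74 to 4.56), which was 1.34 within the study's limits and 1.22 after thinning. Il10, an anti-inflammatory cytokine, had a ratio of 2.63 (1.26 to 6.34), or 1.62 (0.776 to 3.92) without the 3 deepest LFD cells. Il6 had 400 CPM on LFD and 38.1 CPM on HFD, a ratio of 0.0953 (0.0531 to 0.163), from 9 cells in each library, and 0.23 without the 3 deepest LFD cells. Il1rn, the interleukin-1 receptor antagonist, had 232 and 102 CPM, a ratio of 0.438 (0.278 to 0.694).

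Il1b had 529 CPM on LFD and 788 CPM on HFD, a ratio of 1.49 (1.17 to 1.92), seen in 39.1 and 35.9% of cells. The ratio was 3.43 without the 3 deepest LFD cells, 4.40 within the study's limits and 4.38 after thinning, so the direction was the same in each. In the HFD library the highest cell had 117 UMIs of Il1b per 10000 and 50 of 78 cells had 0.

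NF-kB feedback genes went in both directions by less than 2-fold. Of 9 with at least 50 UMIs, 0 were 2-fold higher and 0 lower, beside 5.61 and 3.24% of all genes, and the median log2 ratio of 14 was -0.33. Nfkbia, the inhibitor that holds NF-kB in the cytoplasm, had 1491 CPM on LFD and 2015 CPM on HFD, a ratio of 1.35 (1.17 to 1.57). Tnfaip3, a deubiquitinase that limits the pathway, had 626 and 415 CPM, a ratio of 0.663 (0.517 to 0.855), and Zfp36, which destabilises cytokine mRNA, 1562 and 1113 CPM. Tnip3 had a ratio of 1.08 (0.837 to 1.41), but 59.5% of its LFD UMIs lay in the 3 deepest LFD cells, and the ratio was 1.65 (1.14 to 2.46) without them and 2.01 within the study's limits.

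Class II genes differed by less between diets. Of 7 with at least 50 UMIs, 0 were 2-fold higher and 0 lower, beside 5.61 and 3.24% of all genes. A count over so few genes cannot be told apart from these shares. The median log2 ratio was 0.10 over 10 genes. H2-Aa had 6689 CPM on LFD and 8102 CPM on HFD, H2-Eb1 5920 and 7220 CPM, and Cd74, the invariant chain, 12635 and 15078 CPM, each seen in all 101 cells. Their ratios were 1.21 (1.13 to 1.30), 1.22 (1.13 to 1.31) and 1.19 (1.13 to 1.26), and they were 0.993, 1.01 and 0.998 without the 3 deepest LFD cells. Summed over the list, class II took 3.4% of UMIs on LFD and 4.02% on HFD, and per cell it ran from 1.46 over a median of 3.70 to 6.90% on LFD and from 0.313 over 4.18 to 7.48% on HFD.

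Retnla, a secreted protein of alternatively activated macrophages, was lower on HFD. It had 31229 CPM on LFD and 10409 CPM on HFD, a ratio of 0.333 (0.320 to 0.347). Its median over cells was 123 UMIs per 10000 on LFD and 6.75 on HFD, with highest cells at 948 and 645 and with 7 LFD and 31 HFD cells at 0. The ratio was 0.29 without the 3 deepest LFD cells, 0.33 within the study's limits and 0.41 after thinning. Mrc1 and Mgl2, which are also linked to alternative activation, had ratios of 1.06 (0.850 to 1.32) and 1.03 (0.851 to 1.25). Without the 3 deepest LFD cells, which held 4.83% of the LFD UMIs of Mgl2, its ratio was 0.667 (0.550 to 0.813).

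Further genes with lower levels on HFD are known from monocyte-derived or from tissue macrophages. Lyz1, a lysozyme gene, had 4429 CPM on LFD and 316 CPM on HFD, a ratio of 0.0713 (0.0593 to 0.0852), from 12 and 15 cells, and Lyz2, its near copy, 12532 and 11749 CPM. How reads that fit both genes were counted was not tested, and LFD monocytes had 539 UMIs of Lyz2 beside 0 of Lyz1. Fn1, which encodes fibronectin, had 3202 and 1113 CPM, a ratio of 0.347 (0.307 to 0.394), and 0.55 without the 3 deepest LFD cells. F13a1, a coagulation factor subunit of tissue macrophages, had 833 and 280 CPM, a ratio of 0.336 (0.261 to 0.431), with medians over cells of 7.24 and 1.38 UMIs per 10000. Cd163, a haemoglobin scavenger receptor of resident cells, had 181 and 36 CPM, a ratio of 0.199 (0.102 to 0.377), from 5 LFD and 8 HFD cells. On LFD 3 cells held 82.1% of its 28 UMIs, and the ratio was 0.123 without the 3 deepest LFD cells, which held 0 of them.

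Of growth factors that can act on stroma, Igf1 had 194 CPM on LFD and 424 CPM on HFD, a ratio of 2.19 (1.49 to 3.33) that was 1.35 without the 3 deepest LFD cells. Areg, a ligand of the epidermal growth factor receptor, had 226 and 114 CPM, a ratio of 0.506 (0.325 to 0.798), and Tgfb1 271 and 265 CPM, a ratio of 0.977 (0.684 to 1.42). Gdf15, a stress-induced cytokine, had a ratio of 3.42 (1.89 to 6.79), with 75% of its LFD UMIs in 1 cell and 1.06 as the value within the study's limits. Cdkn1a, a cell cycle inhibitor counted among senescence genes, had 497 and 468 CPM, a ratio of 0.942 (0.724 to 1.24).

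Immediate early genes, which dissociation of tissue can induce, had a median log2 ratio of -0.51 over 15 genes, and 0 of 14 were at least 2-fold higher on HFD and 2 lower, beside 5.61 and 3.24% of all genes. Those 2 were Egr2 with a ratio of 0.450 (0.267 to 0.768) and Klf4 with 0.480 (0.360 to 0.644), and Egr1 had 0.515 (0.444 to 0.598). Cycling cells were few, with 2 or more UMIs of Mki67 and Top2a in 2 LFD and 8 HFD cells. Mki67, a proliferation gene, had 278 CPM on LFD and 80.5 CPM on HFD, but 90.7% of its LFD UMIs lay in 1 cell, and the ratio of 0.290 was 0.193 without the 3 deepest LFD cells. Leaving out the cycling cells, which were picked by this gene, kept 1 LFD and 6 HFD UMIs, too few for a direction.

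Of the remaining 2-fold differences, the highest ratios belonged to Basp1 at 5.33, Noct at 4.92, Hilpda, a lipid droplet protein of hypoxic cells, at 3.87, Ms4a7 at 3.87 and Ptp4a1 at 3.86. The lowest belonged to Ncf1, a subunit of the phagocyte oxidase, at 0.269, Stmn1, a microtubule regulator of dividing cells, at 0.283, Ly6e at 0.302, and Tiparp and Klf3 at 0.328 each. The LFD level of Hilpda came from 10 UMIs in 4 cells and that of Stmn1 from 44 UMIs in 4 cells, and Stmn1 turned to 1.74 within the study's limits and to 1.53 without the cycling cells, when 3 LFD UMIs were left. Without the 3 deepest LFD cells Basp1 was 3.30, Noct 7.60, Hilpda 12.0, Ms4a7 2.39, Ptp4a1 9.53 and Ncf1 0.433 times the LFD level.

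**Figure D4:**
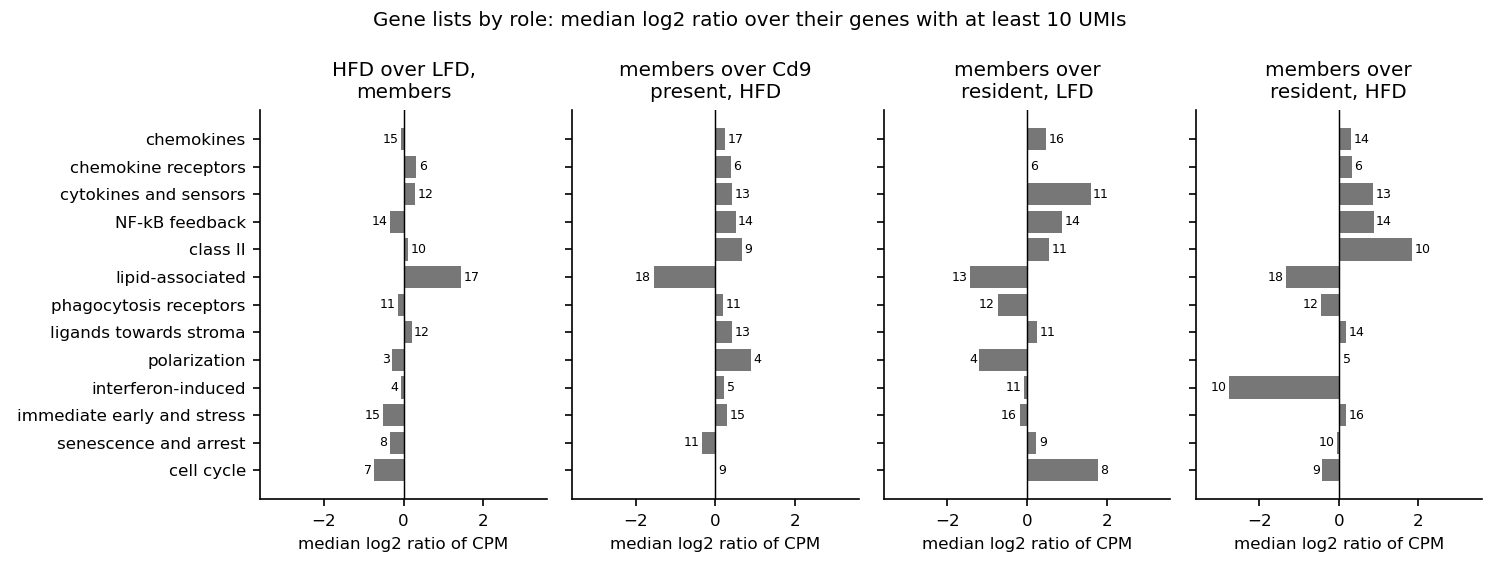
Median log2 ratio (bars, x axis) of 13 gene lists (y axis) in 4 comparisons (panels, members being the Cd9-negative macrophages), with the number of genes with at least 10 UMIs beside each bar. Lipid-associated genes stood at 1.44 between diets and at -1.55 against Cd9-positive macrophages on HFD, and class II at 0.10 and 0.68, while the longest bar, interferon-induced genes against resident cells on HFD at -2.75, rests on a list with 6 of 11 genes at 0 UMIs in the Cd9-negative cells and depends on the 0.5 UMIs added.

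Against the Cd9-positive macrophages of the same library the Cd9-negative cells held more Ccr2 and Retnla and less of most lipid-associated genes. Class II and, with 1 exception, NF-kB feedback genes with at least 50 UMIs stayed within 2-fold, as did most genes with as many UMIs. Because LFD had 2 Cd9-positive cells, this comparison used HFD alone, a choice made after the data had been seen, and as both classes were cut from the same cells it is a description without a test. Among 5254 genes with at least 25 UMIs, 162, or 3.08%, were at least 2-fold higher in the Cd9-negative cells and 331, or 6.30%, at least 2-fold lower. Ccr2 was 759 CPM against 179 CPM, a ratio of 4.24 (3.46 to 5.21), and Ccl4 502 against 160 CPM, a ratio of 3.14 (2.51 to 3.95), with 33.1% of the Cd9-positive UMIs of Ccl4 in 1 cell. Cxcl2 was 8381 against 6424 CPM and Tnip3 551 against 387 CPM.

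Retnla was 10409 CPM against 2494 CPM, a ratio of 4.17 (3.96 to 4.41), and Mrc1 and Mgl2 had ratios of 2.10 (1.78 to 2.48) and 2.26 (1.95 to 2.62). F13a1 had a ratio of 3.22 (2.37 to 4.41), which was 0.812 within the study's limits. Cbr2, a carbonyl reductase of resident macrophages, had 4.98 (2.79 to 9.35), Plbd1 4.89, Tppp3 3.70, Lifr 3.51, Rnd3 3.51 and Ly6e 3.04, and Rnd3 was 0.932 within the study's limits. Il1b was 2.14 times (1.83 to 2.52) the Cd9-positive level, and Tnf 1.33 times (1.09 to 1.64).

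Class II transcripts took 4.02% of UMIs against 2.51%, and per cell the medians were 4.18 and 2.93% with overlapping ranges. Of 8 class II genes with at least 50 UMIs 0 passed 2-fold, beside 2.04% of all genes higher and 4.88% lower, and the median log2 ratio over 9 was 0.68. H2-Ab1 was 7798 against 4671 CPM, and H2-Aa and H2-Eb1 had ratios of 1.6 (1.53 to 1.67) and 1.73 (1.65 to 1.81). The NF-kB list had a median of 0.51, with 1 of 10 genes at least 2-fold higher and 0 lower, beside 2.04 and 4.88% of all genes with at least 50 UMIs. Per cell it took a median of 0.659% of UMIs, with quartiles at 0.416 and 0.832%, against 0.571% with quartiles at 0.308 and 0.743%, so the classes overlapped.

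Of 17 lipid-associated genes with at least 50 UMIs, 15 were at least 2-fold lower in the Cd9-negative cells and 0 higher, beside 4.88 and 2.04% of all genes with as many UMIs, and the median log2 ratio was -1.55. Gpnmb, a lysosomal glycoprotein, was 61.5 CPM against 1936 CPM, a ratio of 0.0317 (0.0212 to 0.0458), and Mmp12 131 against 2248 CPM, a ratio of 0.0584 (0.0446 to 0.0753). Trem2 had a ratio of 0.242 (0.202 to 0.288), Ctsl 0.200 (0.171 to 0.233), Fabp5 0.150 (0.126 to 0.178) and Lgals3, a galectin, 0.268 (0.250 to 0.286). Apoe, at 0.705, and Plin2, at 0.684, did not pass 2-fold. Cd9 is itself counted with these genes as a mark of lipid-associated macrophages, and the class was chosen by its lack.

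The genes with the lowest ratios beyond that list were Ctsk, a cysteine protease best known from osteoclasts, with 1 UMI against 228, Lhfpl2 with 1 against 92, F7 with 4 against 129, Rnf128 with 2 against 54 and Syngr1 with 4 against 89. Zranb3 and Hist1h1b were at 0 UMIs in the Cd9-negative cells and at 72 and 76 in the others. Slpi had 2 UMIs against 126, of which 97.6% came from 1 Cd9-positive cell.

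Against the resident macrophages, which the lectin limit set apart, the Cd9-negative cells held more Ccr2, Il1b, Fn1 and class II in both libraries. Among 5878 genes with at least 25 UMIs in each library, 119, or 2.02%, were at least 2-fold higher in both libraries and 267, or 4.54%, at least 2-fold lower in both. Ccr2 had ratios of 21.5 (16.9 to 27.5) on LFD and 27.2 (20.05 to 37.5) on HFD. Il1b was 529 CPM against 11.5 CPM on LFD and 788 against 69.9 CPM on HFD, ratios of 45.9 and 11.3. Tnip3 had 510 against 3.08 CPM on LFD, where the resident level rested on 4 UMIs, and 551 against 137 CPM on HFD, ratios of 166 (62.2 to 623) and 4.01 (3.35 to 4.80). The other markers were closer on LFD, with ratios of 2.60 for Cxcl2, 1.70 for H2-Ab1 and 1.36 for Ccl4. That of Ccl4 was 1.57 (0.935 to 2.50) without the 3 deepest LFD cells, so Ccl4 did not set the class apart there.

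Fn1 had ratios of 260 on LFD and 9.80 on HFD, and Lyz1 48.4 and 4.89. Ear2, a ribonuclease of myeloid cells, had 83.1 and 15.9, Areg 73.4 and 14.0, and Clec4e, a receptor for damaged cells and mycobacterial lipid, 69.2 and 12.7. Bhlhe40, a transcription factor, had 101 and 4.81, and Cytip 26.7 and 8.21. On LFD these ratios rested on between 2 and 119 resident UMIs, and in each of these 7 genes the HFD ratio was the smaller. Without the 3 deepest LFD cells the LFD ratios of Il1b, Tnip3, Fn1 and Clec4e were 19.9, 109, 165 and 10.2, so that of Clec4e was then below its HFD ratio.

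Class II had a median log2 ratio of 0.56 on LFD, with 2 of 9 genes at least 2-fold higher and 1 lower, and of 1.85 on HFD, with 7 of 9 higher and 0 lower. Of all genes with at least 50 UMIs, 7.34% were at least 2-fold higher and 14.9% lower on LFD, and 3.39% higher and 7.71% lower on HFD. The wider gap on HFD went with a lower resident level, as class II took 2.29% of resident UMIs on LFD and 1.05% on HFD. H2-Ab1 in resident cells was 3904 CPM on LFD and 1733 CPM on HFD, beside 6637 and 7798 CPM in the Cd9-negative cells. Chemokines took 1.55 and 1.64% of UMIs in the Cd9-negative cells and 1.49 and 1.40% in the resident cells, but the medians per cell were 1.80 and 1.39% against 1.27 and 1.46%, so on HFD no direction was given. Ccl8, a chemokine of resident cells, had ratios of 0.0432 and 0.0232.

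Resident markers outside the rule were lower in the Cd9-negative cells, which describes the division by lectins and gives it no separate support. Their median log2 ratio was -2.96 on LFD and -2.32 on HFD. At least 2-fold lower were 10 of 11 and 8 of 10 genes, beside 14.9 and 7.71% of all genes. Vsig4, a complement receptor of tissue macrophages, was at 0 UMIs in the Cd9-negative cells of both libraries and at 60 and 91 UMIs in the resident cells. Cd163 had ratios of 0.215 and 0.115. The other genes with the lowest ratios, Slc40a1, the iron exporter, Ccnt2, Dnm1, Dcaf17, Adam33, Cdc25b, Osbpl2, Snx12 and Zfp639, had between 0 and 6 UMIs in the Cd9-negative cells of either library, and for some of them the interval took in 1, as for Dcaf17 with upper limits of 1.33 on LFD and 1.43 on HFD. The deepest cells of the resident class on HFD reached 75633 UMIs, and lipid-associated ratios against that class turned when cells were thinned, Trem2 from 0.294 to 1.04 and Gpnmb from 0.0780 to 5.01.

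The cells differed among themselves most in Retnla. After thinning to 2000 UMIs, the variance of Retnla over its mean was 57.4 on LFD and 49.5 on HFD, beside medians over all ranked genes of 0.941 and 1.05. Lyz1 at 18.1, Apoe at 14.1 and Fn1 at 11.8 followed on LFD among genes of known macrophage function, and Apoe at 27.5, Lyz2 at 24.6, Il1b at 11.2, Cxcl2 at 10.5 and Ccl4 at 8.32 on HFD. Gm42418 and Malat1 also ranked high in both libraries, with Cxcl10, Mki67, Hmgb2 and Lyz2 on LFD and Fth1 and Ftl1 on HFD. Il1b on HFD had a median of 0 UMIs after thinning, and 1 cell held 33.3% of its UMIs.

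**Figure D5:**
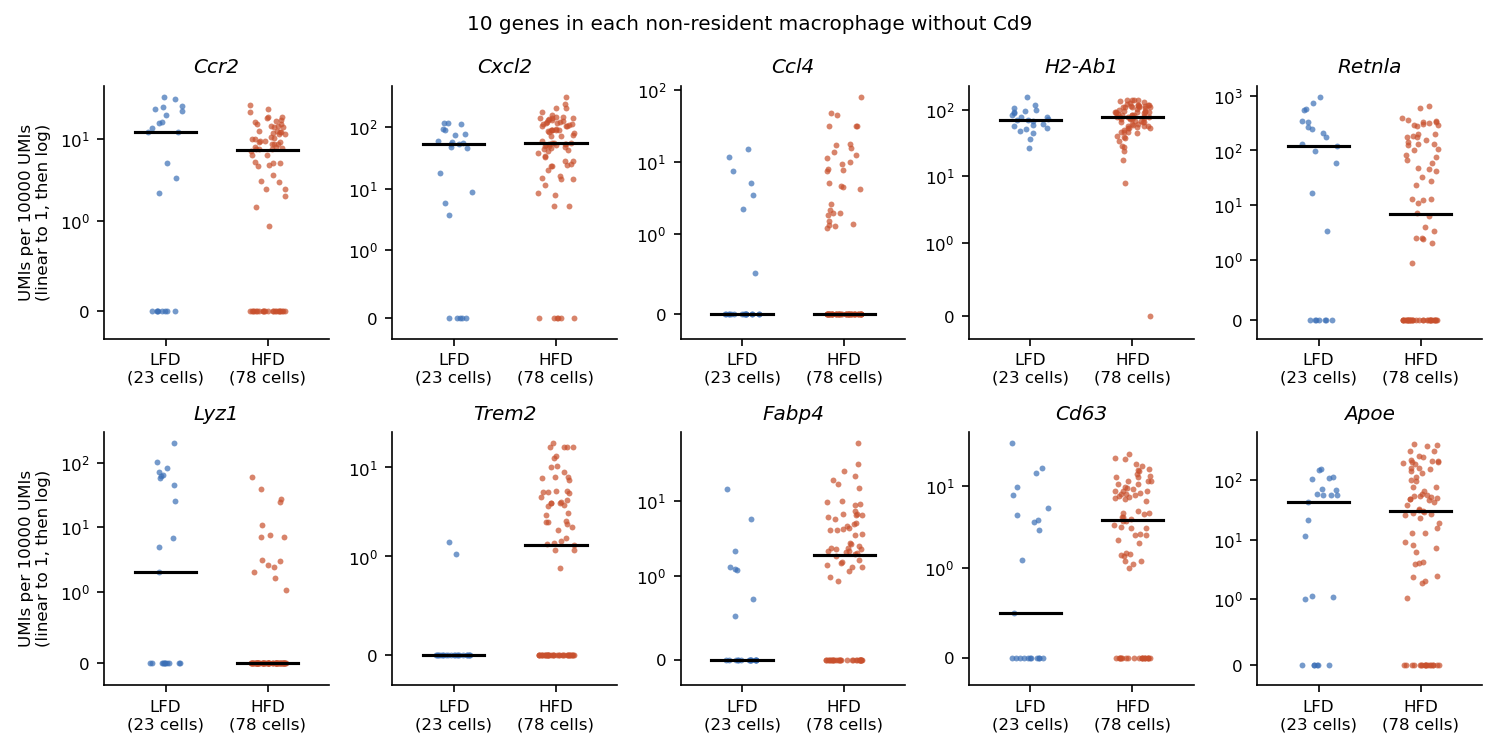
UMIs per 10000 UMIs of 10 genes (y axis, linear up to 1 and logarithmic above) in each Cd9-negative macrophage (points) on LFD and HFD (x axis), with a black line at the median. H2-Ab1 lay above 0 in 23 of 23 and 77 of 78 cells, Retnla spread from 0 to 948 with medians of 123 on LFD and 6.75 on HFD, and Ccl4 had a median of 0 on both diets.

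Pairs of genes were followed in the same thinned cells, 18 on LFD and 73 on HFD, as a description with no test. Retnla and Ccr2 had Spearman's rho of 0.60 on LFD and 0.28 on HFD, and 33 HFD cells had both, 8 only Retnla, 14 only Ccr2 and 18 neither. Il1b and Tnip3 had rho of 0.60 on LFD and 0.13 on HFD, and Cxcl2 and Tnip3 -0.04 and 0.34. Trem2 and Ccr2 on HFD had rho of -0.08, with 14 cells that had both, 11 only Trem2, 33 only Ccr2 and 15 neither. The cells of a library share its free RNA and its dissociation, and at 2000 UMIs a cell without a UMI can still express the gene.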

How the data were processed

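The deposited files hold raw counts of UMIs, which the authors obtained from 10x Chromium 3′ libraries with Cell Ranger on mm10, version 3.0.2 per the file headers. They were counted before any limit on genes or mitochondrial UMIs. Of 27998 gene IDs, 27645 were placed in GENCODE M21, and 2 listed T cell genes, Trac and Trbc2, are not used here. Barcodes with at least 200 genes were kept, and doublets were called with Scrublet and left out only in an alternative.

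UMIs were summed per class and library and divided by all UMIs of the class. The values are plain ratios with counting intervals at 95%, a floor of 3 UMIs for genes at 0, and a call at 2-fold among genes with at least 50 UMIs for diets or 25 UMIs between classes. Medians of lists used genes with at least 10 UMIs and 0.5 UMIs added. The members and gene lists were chosen with earlier results of these data known. Genes were named when they were markers, belonged to a list, were among the 10 highest or 10 lowest ratios past 2-fold, with an interval that left out 1 for diets and for the Cd9-positive class and by the geometric mean of both libraries, with no limit on intervals, for the resident class, or were among the 10 most variable of thinned cells. Mitochondrial, ribosomal protein, haemoglobin, Y-linked, Xist and selecting genes stayed out of the ranked names. The intervals were tested on data simulated with the same profile in all cells of a library. That setting leaves out the spread between cells seen here, which the intervals do not cover. Python 3.11.15, numpy 2.4.6, scipy 1.17.1, pandas 2.3.3, scanpy 1.11.5 and matplotlib 3.10.9 were used.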

Additional observations from a re-analysis of the deposited data

Results flagged for a closer look

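Listed or named genes with at least 50 UMIs in each class were compared between diets in the Cd9-negative and the resident macrophages. Of these, 5 passed 2-fold in opposite directions, with intervals that left out 1 and with all cells kept. In no case was the difference between the classes tested, and genes outside these limits were not counted. Fn1 had an HFD over LFD ratio of 0.347 in the Cd9-negative cells, from 3202 to 1113 CPM, or 0.549 and thus under 2-fold without the 3 deepest LFD cells, and of 9.22 in the resident cells, from 12.3 to 114 CPM. Il1rn had 0.438 and 18, the latter from 3.08 to 55.3 CPM. Rnd3 had 2.46 (1.05 to 7.06) and 0.451, the former from 38.7 to 95.4 CPM with only 6 LFD UMIs. Its ratio without the 3 deepest LFD cells was not taken. The proliferation genes Mki67 and Stmn1 had 0.290 and 0.283 in the Cd9-negative cells, where 1 LFD cell held 90.7 and 75% of their LFD UMIs, and 8.04 and 5.34 in the resident cells. Their direction in the Cd9-negative cells was not settled, as the ratios were 1.39 and 1.74 within the study's limits, and as 1 and 3 LFD UMIs were left without the cycling cells. The resident class on HFD took in cells of up to 75633 UMIs, and their part in these values was not tested.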

How the results depend on the processing

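No paired analysis was possible because there was 1 library per diet, and for the same reason no replicate could be left out. The higher share of Cd9-negative macrophages on HFD kept its direction under each alternative. Of 311 list medians recomputed under the alternatives, 302 moved by less than 1 on the log2 scale and 9 by more. Counts of genes past 2-fold depended on depth and on the UMI minimum, by construction with fewer cells or other genes. In the order higher and lower, the counts as reported were 102 and 59 between diets, 162 and 331 against Cd9-positive cells on HFD, 12 and 6 against them in both libraries, and 119 and 267 against resident cells.

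Within the study's limits these were 49 and 24, 64 and 61, not obtainable for both libraries with 0 Cd9-positive LFD cells, and 29 and 74. Thinned to 3000 UMIs the diet gave 61 and 28, the resident class 45 and 126, and the Cd9-positive class 113 lower on HFD and 2 lower in both. At minimums of 100 and 50 UMIs they were 36 and 21, 66 and 158, 7 and 3, and 73 and 155. At 20 and 10 UMIs they were 316 and 258, 440 and 769, 34 and 33, and 187 and 508. With the mean of CPM over cells 191 genes were higher on HFD. With resident lectins at 0, 181 were lower than in Cd9-positive cells on HFD and 7 higher in both libraries, and with up to 5 UMIs 26 and 11 passed in both. With up to 1 UMI of Cd9, 249 were higher on HFD, 43 and 10 passed in both libraries, and 100 were lower between diets. Named genes past 2-fold fell from 37 to 24 (study's limits) and 22 (thinned) between diets, and from 28 to 16 (study's limits) against Cd9-positive cells. Lists with a median above 0 went from 9 of 21 to 14 with lectins at 0 and to 5 without the 3 deepest LFD cells.

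Among named genes past 2-fold, reversed ratios were Apoe 0.779, Mki67 1.39 and Stmn1 1.74 between diets and F13a1 0.812 and Rnd3 0.932 against Cd9-positive cells (study's limits), Mki67 1.92 (lectins at 0), Mki67 1.84 and Stmn1 1.53 (cycling cells left out), Ccr1 3.15 between diets, Slpi 7.42 against Cd9-positive cells, and Gpnmb 5.01, Lgals3 1.62, Snx12 1.13 and Trem2 1.04 against resident HFD cells (thinned). For Mki67 and Stmn1 the cycling cells, picked by Mki67 itself, held most LFD UMIs, and for the others the cause was not tested. The settings without the 3 deepest LFD cells, without cycling cells and on HFD alone were chosen after seeing the data.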
